A study of Rattus norvegicus with 8 samples.

Results

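Ccl5-high effector T cells were 179 of the 63769 cells that passed the filter in 8 single-cell libraries of rat spinal cord, or 0.281% of them. A cell was counted as a member when it held at least 500 UMIs (unique molecular identifiers, each standing for 1 captured RNA molecule), at most 10% of them from mitochondrial genes, at least 2 UMIs of the CD3 chains Cd3d, Cd3e and Cd3g together, at least 3 UMIs of Ccl5 and at most 2 of Tyrobp. Cells that met all of this but the Ccl5 limit were also T cells by these counts, so members made up 14.8% of 1208 T cells, against 968 T cells with no Ccl5 UMI (80.1%) and 61 with 1 or 2 (5.05%). The members were thus chosen by their measured UMIs of these 5 genes, and the gate used no other gene beyond the mitochondrial share. The rats were female Wistar rats, 8 weeks old by their labels, whose cord was exposed by laminectomy in every group and taken 7 days later as a 10 mm segment around the lesion. The sham group had the laminectomy alone, and the mild, moderate and severe groups had a 10 g weight dropped from 12.5, 25 and 50 mm. Each of the 4 groups had 2 libraries, and each library was made from a whole dissociated segment with no sort described, so lymphocytes were a small part of every library.

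T cells recognise antigen through the T cell receptor, whose signal passes through the CD3 chains, and the co-receptors CD8 and CD4 mark the cytotoxic and helper lineages. Cytotoxic effector cells store granzymes and perforin in granules and release them onto target cells. Ccl5, a chemokine that recruits leukocytes, is made in large amount by effector and memory T cells and by NK cells, and T cells enter the spinal cord in the days after a contusion. Tyrobp, an adaptor of myeloid and NK cell receptors, was used here to keep those cells and their mixtures with T cells out.

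Ccl5 was the gene of the rule, so its level is a description and was not tested. In the 6 injured libraries together, 662 T cells had no Ccl5 UMI, 9 had 1, 5 had 2 and 8 had 3 or 4, while 15 had 5 to 9, 33 had 10 to 19, 52 had 20 to 49, 38 had 50 to 99 and 25 had 100 or more. Members had a median of 31 Ccl5 UMIs, from 3 to 440. In the sham libraries 306 T cells had no Ccl5 UMI, 38 had 1, 9 had 2 and 1 had 3 or 4, and 7 had 20 or more. Near the limits, 14 T cells had 2 Ccl5 UMIs and 4 had 3. A further 5 cells missed the gate with a CD3 sum of 1 and 4 members had a sum of 2, and 14 members had 2 Tyrobp UMIs while 3 cells were left out with 3.

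**Figure D1:**
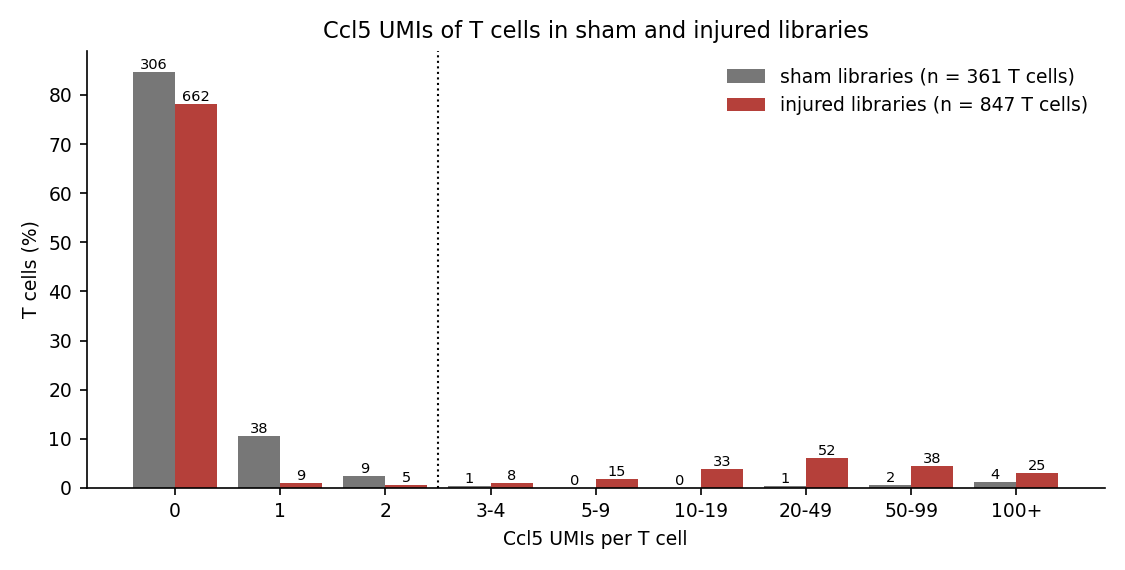
Percent of T cells (y axis) by Ccl5 UMIs per cell (x axis) in the sham (grey) and injured (red) libraries, with the number of cells above each bar and the limit of 3 UMIs as a dotted line. Of the injured libraries' T cells 662 were at 0, 9 at 1 and 5 at 2, and the bins widen to the right.

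Members came mostly from injured cords, 171 of 179 (95.5%). By library, 8 of 360 T cells were members in sham replicate 1 (2.22%, Wilson 95% interval 1.13 to 4.32%), and sham replicate 2 held 1 T cell and no member. Mild replicate 1 held 66 of 192 (34.4%, 28.0 to 41.3%) and mild replicate 2 held 9 of 64 (14.1%, 7.58 to 24.6%). Moderate replicate 1 held 34 of 156 (21.8%, 16.04 to 28.9%) and moderate replicate 2 held 3 of 47 (6.38%, 2.19 to 17.2%). Severe replicate 1 held 36 of 172 (20.9%, 15.5 to 27.6%) and severe replicate 2 held 23 of 216 (10.6%, 7.20 to 15.5%). Every injured library was above sham replicate 1, and within each injured group replicate 1 was above replicate 2. The first order depended on the limit, since with 1 Ccl5 UMI as the limit sham replicate 1 held 55 of 360, a larger share than the 4 of 47 in moderate replicate 2 and the 24 of 216 in severe replicate 2. These intervals cover counting error only.

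Among all kept cells the member shares were 0.0745% in sham replicate 1, 0% in sham replicate 2 (0 of 2702 cells, which allows up to 0.111%), 0.711% and 0.0998% in the mild libraries, 0.294% and 0.0415% in the moderate libraries, and 0.850% and 0.256% in the severe libraries. The SD within the mild and moderate groups exceeded their means. Over both libraries of each group the means were 0.405% ± 0.432 (SD, n = 2) in mild, 0.168% ± 0.179 in moderate, 0.553% ± 0.420 in severe and 0.0373% ± 0.0527 in sham. Against drop height over the 8 libraries, this share gave Pearson r = 0.516 (exact permutation p = 0.173, two-sided) and Spearman rho = 0.586 (exact permutation p = 0.153), both with an adjusted p of 0.347 over the 2 shares tested. Without the 2 libraries farthest from the median height r was 0.217 (exact permutation p = 0.800, 6 libraries). The member share of T cells over 7 libraries, without the library of 1 T cell, gave r = 0.103 (exact permutation p = 0.840) and rho = 0.165 (exact permutation p = 0.730, adjusted p = 0.840). The sign of this r was not stable. It was −0.503 without the 2 libraries farthest from the median height and −0.189 with 1 Ccl5 UMI as the limit. No relation of member numbers to drop height was detectable with these libraries. Leaving out mild replicate 1 raised the first r to 0.742 (exact permutation p = 0.0238), so that library decided on which side of the threshold it fell.

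**Figure D2:**
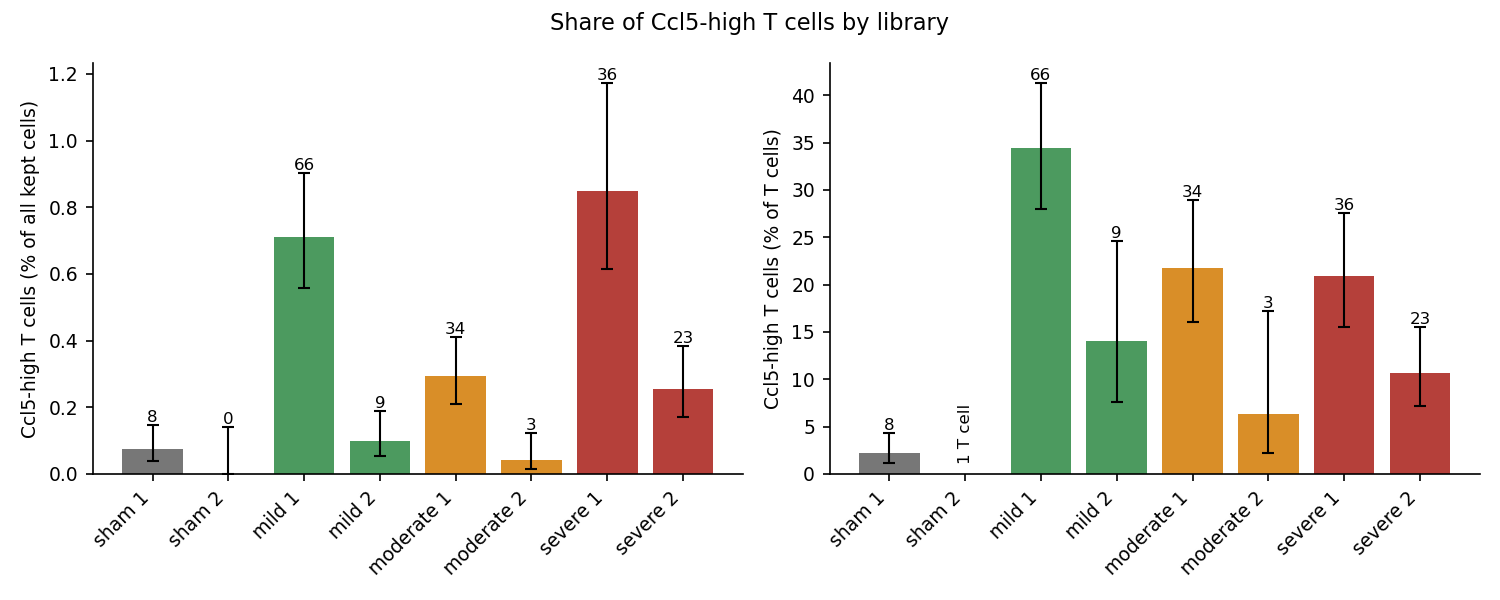
Percent of kept cells (left) and of T cells (right) that were Ccl5-high T cells in each of the 8 libraries, with Wilson 95% intervals for counting error and the number of members above each bar. Mild replicate 1 and severe replicate 1 were highest among all cells, at 0.711% and 0.850%, while their partner libraries were at 0.0998% and 0.256%.

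The members carried the co-receptor of cytotoxic T cells. A UMI of Cd8a or Cd8b was present in 157 of 179 members (87.7%), 66 of them with both chains and 87 with Cd8a alone, and no member had a Cd4 UMI. The count of 0 allows up to 1.91% with a detected Cd4 UMI among the 157 members thinned to 1000 UMIs in the libraries with enough cells. It is a weak measure and sets no limit on the share expressing Cd4, since Cd4 was found in only 1.16% of Ccl5-negative T cells thinned alike. After thinning, the share with Cd8a or Cd8b was 70.3% in mild replicate 1, 67.6% in moderate replicate 1, 63.9% in severe replicate 1 and 60.9% in severe replicate 2, a mean of 65.7% ± 4.15 (SD, n = 4) against 27.0% in Ccl5-negative T cells and 21.9% in macrophage-gated cells of the same libraries. Rat macrophages are known to carry CD8 in some settings. Without thinning the members' share was 87.3%.

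Levels are given in CPM (UMIs of a gene per 1000000 UMIs of the summed cells of a class in a library). This unit is not divided by transcript length, so genes are compared with themselves only. Members were compared with Ccl5-negative T cells of the same library in the 4 libraries with at least 20 cells of both, mild replicate 1, moderate replicate 1 and both severe libraries, which held 159 of the 179 members. No sham library had 20 members, so no contrast of injured with sham members could be made. In these 4 pairs 71 genes were higher in members (2.05% of 3461 tested) and 56 were lower (1.62%) at an adjusted p under 0.05 (edgeR quasi-likelihood test, Benjamini-Hochberg over all genes tested, library as block). The direction was the same in all 4 pairs for 119 of these 127 genes (3.67% of those tested).

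Genes of the cytotoxic apparatus rose. Of 15 genes for granule proteins and death ligands 11 were tested, 8 rose and none fell, with a median log2 fold change of 2.61 beside −0.04 over all genes tested. Gzmk, a granzyme of memory-type cytotoxic cells, was at 1182, 664, 2161 and 2084 CPM in the members of mild replicate 1, moderate replicate 1, severe replicate 1 and severe replicate 2, and at 189, 17.0, 12.1 and 11.1 CPM in the Ccl5-negative T cells of the same libraries. The classes did not overlap, and the mild library had the highest level among Ccl5-negative cells; the log2 fold change was 5.59 ± 0.73 (SE, edgeR adjusted p = 0.00203). Gzmk was named among the marker genes given with these cells but was not part of the gate. Nkg7, a granule membrane protein needed for release, was at 2516, 876, 1516 and 2074 CPM in members against 256, 57.9, 125 and 98.1, and Gzmm, a further granzyme, was at 1541, 1713, 1823 and 2553 against 218, 252, 191 and 171. Both were separated in all 4 libraries, with log2 fold changes of 3.83 ± 0.20 and 3.24 ± 0.21.

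Gzma was found in members alone of the T cell classes in these libraries. Its levels in members were 6.09, 79.7, 50.1 and 120 CPM, from 27 UMIs, against 0 UMIs in Ccl5-negative T cells, which puts members at least 42.7-fold higher with 3 UMIs over the group as the floor (edgeR adjusted p = 0.0113). Its call was lost without severe replicate 2. The perforin gene Prf1, whose product opens pores in target membranes, rose less, at 207, 146, 163 and 229 CPM in members against 108, 71.5, 51.0 and 89.0. Faslg, the ligand of the death receptor Fas, was at 560, 372, 432 and 538 CPM against 154, 81.8, 73.9 and 41.5. Their log2 fold changes were 1.31 ± 0.23 (edgeR adjusted p = 0.0090) and 2.61 ± 0.28 (edgeR adjusted p = 0.000542). Gzmbl2 rose by a log2 fold change of 4.29 ± 0.82 from 27 UMIs against 6, and Ctsw, a protease of cytotoxic lymphocytes, by 1.70 ± 0.17. The calls for Prf1 and Ctsw were lost without the library block. Gzmb itself was listed at 0 in every class, and since reads of this family can be divided among near-identical copies, the level of Gzmbl2 is uncertain.

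The promoters of Gzmk, Gzmm and Nkg7, granule genes that rose, are shown because these genes moved together in the same 4 libraries. RefSeq's promoter table for the GRCr8 build, which differs from the build of the deposited counts, had an entry for 6 of the 8 genes that rose. The core motif of RUNX factors, TGTGGT or its reverse ACCACA, stood in 5 of these 6 windows of 300 bases, those of Gzma, Gzmk, Gzmm, Prf1 and Nkg7 and not that of Faslg, and in 17.3% of all 33469 promoters. The T-box core GGTGTG, or its reverse CACACC, stood in those of Gzmk and Gzmm and in 17.9% of all promoters. The motifs were chosen with these results known. In the sequences, each 250 bases before to 50 after the annotated start on the gene's strand, capitals mark either core.
Gzmk (chr2:46581966-46582265, minus strand): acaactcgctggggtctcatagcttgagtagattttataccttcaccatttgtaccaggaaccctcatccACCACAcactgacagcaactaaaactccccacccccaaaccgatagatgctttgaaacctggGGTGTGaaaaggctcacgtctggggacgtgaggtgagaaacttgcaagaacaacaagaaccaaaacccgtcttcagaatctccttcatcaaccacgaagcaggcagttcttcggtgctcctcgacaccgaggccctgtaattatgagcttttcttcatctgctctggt
Gzmm (chr7:10667207-10667506, minus strand): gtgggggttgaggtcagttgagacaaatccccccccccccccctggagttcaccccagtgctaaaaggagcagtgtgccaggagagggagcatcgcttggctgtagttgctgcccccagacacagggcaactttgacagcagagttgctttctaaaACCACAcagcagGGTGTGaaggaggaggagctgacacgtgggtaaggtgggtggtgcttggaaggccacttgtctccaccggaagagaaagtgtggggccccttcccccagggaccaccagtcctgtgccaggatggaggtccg
Nkg7 (chr1:102981247-102981546, plus strand): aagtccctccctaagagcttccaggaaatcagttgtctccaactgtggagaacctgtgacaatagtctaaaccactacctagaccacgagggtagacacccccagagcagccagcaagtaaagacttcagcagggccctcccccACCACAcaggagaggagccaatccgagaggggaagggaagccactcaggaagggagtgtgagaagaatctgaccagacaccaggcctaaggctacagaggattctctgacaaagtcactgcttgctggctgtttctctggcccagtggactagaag
In Gzmm both cores lay close together before the start, and in Nkg7 only the RUNX core was present. A match of these letters is a description of the window and not a bound site.

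The chemokines rose with the granule genes. Of the 6 listed genes other than Ccl5, 4 were tested, 3 rose and none fell, with a median log2 fold change of 2.87. Ccl4, an inflammatory chemokine, was at 8406, 8885, 4416 and 6832 CPM in members of the 4 libraries and at 882, 770, 125 and 196 CPM in Ccl5-negative T cells, a log2 fold change of 4.27 ± 0.32 (edgeR adjusted p = 3.2e-05). Ccl3, a related chemokine, was at 1590, 2630, 445 and 1356 CPM against 239, 453, 36.3 and 92.1, a log2 fold change of 3.19 ± 0.24, whose call was lost without the library block. Each library kept its own rank in both classes for Ccl3, with moderate replicate 1 highest and severe replicate 1 lowest. Macrophage-gated cells held both transcripts as well, with Ccl4 at 1525, 1422, 1761 and 5856 CPM in the same libraries, below the members in each. Ccl3 in macrophage-gated cells was at 934, 1034, 1008 and 3003 CPM, below the members in mild replicate 1 and moderate replicate 1 and above them in both severe libraries. Xcl1, which attracts cross-presenting dendritic cells, rose from 10.1 to 66.1 CPM over the pooled libraries (log2 fold change 2.56 ± 0.56, edgeR adjusted p = 0.0283). Its call was lost without either severe library and without the library block. Without thinning, Ccl3 and Ccl4 were found together in 112 of 179 members, Ccl4 alone in 54 and Ccl3 alone in 2. Gzmk and Nkg7 were found together in 128. The part of background RNA in these counts was not tested.

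Receptors of the NK cell type were raised on these T cells. All 5 tested of the 15 listed genes rose, with a median log2 fold change of 2.12. Klrb1a, an activating lectin-like receptor of rat NK cells, was at 183, 186, 113 and 160 CPM in members against 26.2, 20.4, 13.4 and 30.4. Klrd1, the CD94 chain that pairs with the NKG2 receptors, was at 244, 292, 451 and 199 CPM against 93.2, 106, 76.5 and 55.6. Neither gene's classes overlapped, at log2 fold changes of 2.82 ± 0.27 and 1.90 ± 0.25. Klrc1, Klre1 and Klrk1 rose by 3.69, 2.12 and 1.44 on the log2 scale. The call for Klrc1 was lost without severe replicate 2, and that for Klrk1 without either severe library, after thinning, with a Tyrobp limit of 0 and without the library block. Ncr1, the natural cytotoxicity receptor that defines NK cells, had no UMI in any of the 179 members.

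**Figure D3:**
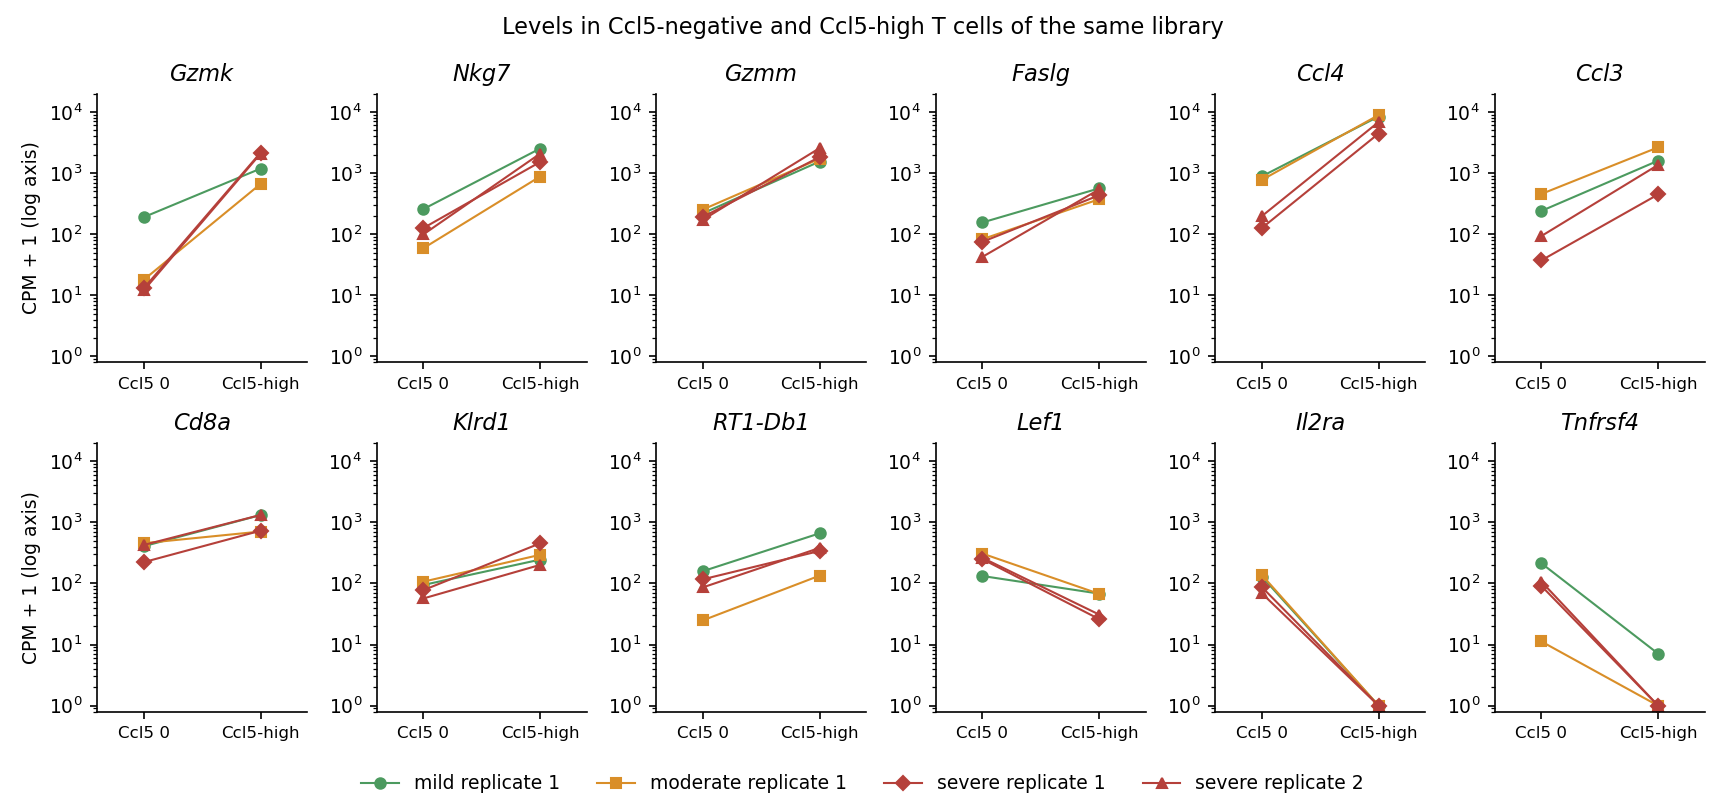
CPM plus 1 on a log axis for 12 genes in Ccl5-negative (left) and Ccl5-high (right) T cells, with 1 line for each of the 4 libraries. Gzmk, Nkg7, Gzmm, Faslg, Ccl4, Ccl3, Cd8a, Klrd1 and RT1-Db1 rose in every library, and Lef1, Il2ra and Tnfrsf4 fell in every library.

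Both CD8 chains rose with the same test. Cd8a was at 1310, 704, 726 and 1316 CPM in members and at 405, 453, 222 and 424 CPM in Ccl5-negative T cells (log2 fold change 1.49 ± 0.21, edgeR adjusted p = 0.00311), a call lost without the library block. Cd8b, the chain found on conventional cytotoxic T cells, rose by 1.37 ± 0.25, a call lost without mild replicate 1, without severe replicate 2, after thinning and without the library block. The third co-receptor, Cd4, was not tested because of its low counts. In the list of T cell receptor signalling, 11 genes without the CD3 chains of the gate were tested and 1, the adhesion receptor Cd2, rose. Its call was lost without severe replicate 2 and without the library block.

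MHC class II genes were higher in members. All 4 tested of 6 rose, with a median log2 fold change of 1.63. Without the library block none of the 4 was called, and RT1-Ba was not called after thinning either. Activated T cells of the rat are known to carry these molecules on their surface. RT1-Db1, a class II beta chain, was at 658, 133, 338 and 379 CPM in members against 157, 23.9, 115 and 85.0 (log2 fold change 2.03 ± 0.21, edgeR adjusted p = 0.00035). Cd74, the invariant chain that guides class II molecules, was at 1182, 79.7, 376 and 379 CPM against 408, 37.5, 201 and 137 (log2 fold change 1.34 ± 0.20). The mild library was highest and the moderate library lowest in both genes and both classes. Macrophage-gated cells of these libraries held Cd74 at 1167, 357, 887 and 957 CPM. The 12 macrophage and microglia markers summed to 1048, 3865, 363 and 1047 CPM in members and 1176, 4156, 384 and 896 CPM in Ccl5-negative T cells, with Apoe the most abundant in each, and the members were higher in severe replicate 2 alone. Of these markers 3 to 5 had 0 UMIs in the members of a library and 1 or 2 in its Ccl5-negative T cells. None of the 5 macrophage markers tested passed the test in either direction.

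Among other lists the changes were fewer. Of 13 tested genes for chemokine, lipid and adhesion receptors, 3 rose, among them Cd69 and Itgb2, and Itgb7 fell. Cd69, a retention and early activation receptor, rose by 1.24 ± 0.29. Of 8 tested effector and memory transcription factors only Hopx rose (1.95 ± 0.30). Of 14 immediate early genes Nr4a2 and Dusp2 rose, by 2.12 and 1.41, and the call for Dusp2 was lost without the library block. Of 7 type I interferon response genes Isg15 and Bst2 rose, the second at an edgeR adjusted p of 0.0471. Of 4 innate-like genes only Rora rose, at the same adjusted p. Calls for Bst2, Rora, Itgb2, Cd69, Nr4a2 and Isg15 were each lost in at least 4 alternatives, those of Cd69 and Nr4a2 without either severe library and that of Isg15 without severe replicate 1. Outside the lists Tnfsf9, the ligand of the co-stimulatory receptor Tnfrsf9, rose by 3.81 ± 0.66 from 40 UMIs against 14, a call lost without either severe library.

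**Figure D4:**
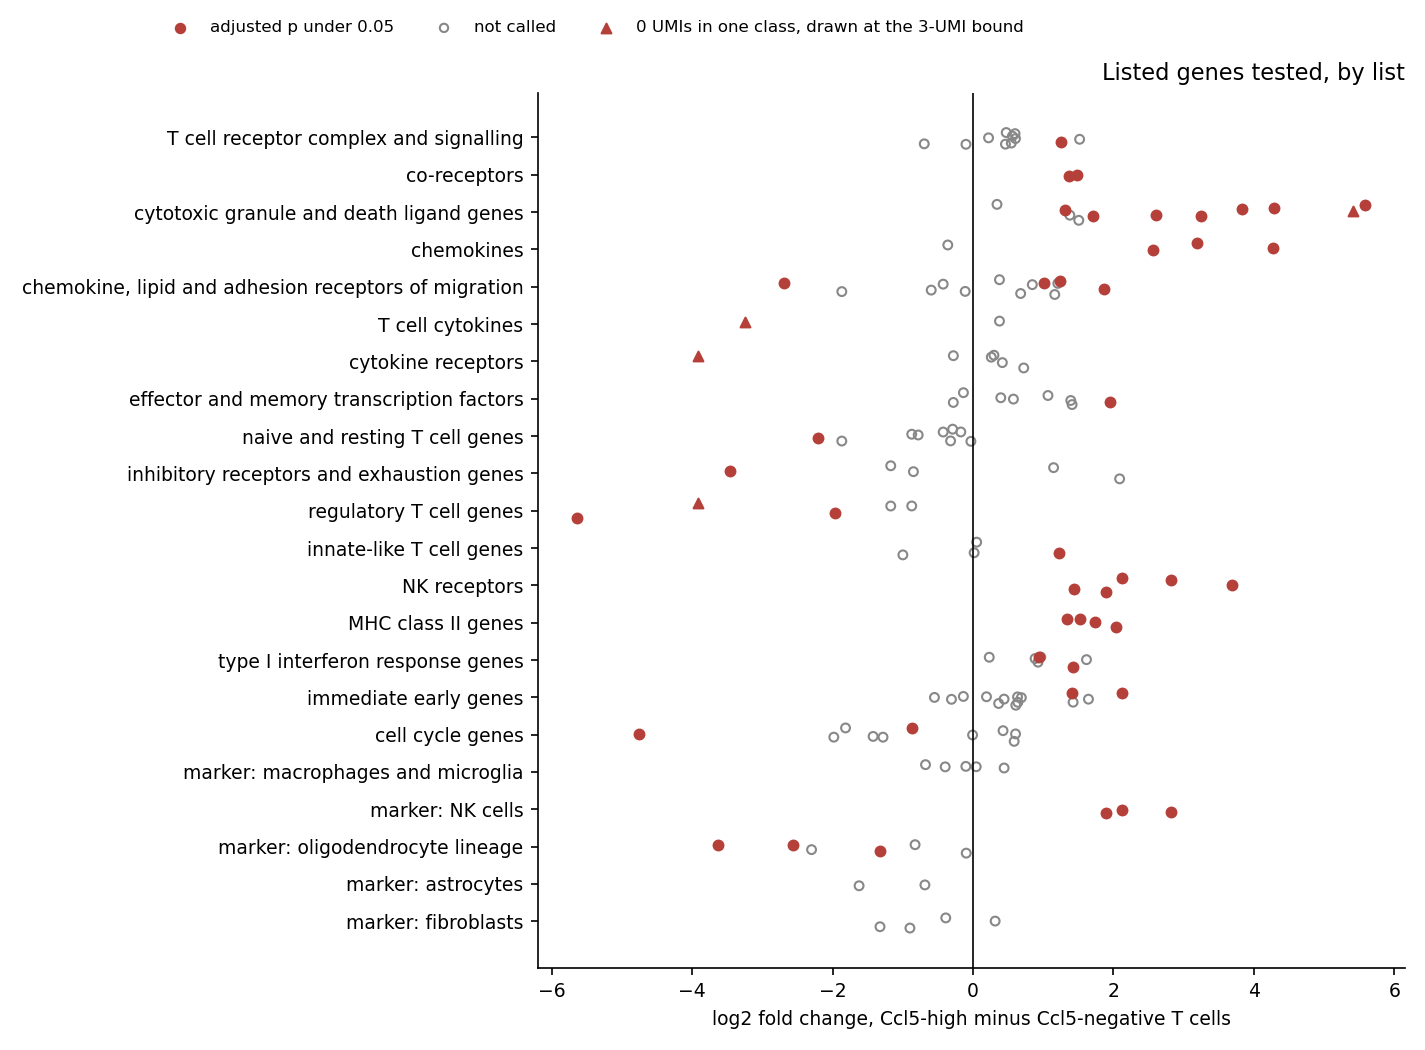
Log2 fold change of each tested gene (points) between Ccl5-high and Ccl5-negative T cells by gene list, with genes at an adjusted p under 0.05 in red and genes with 0 UMIs in 1 class drawn as triangles at the 3-UMI bound. The red points lie to the right for cytotoxic genes, chemokines, NK receptors and MHC class II genes, and 3 regulatory and 2 cell cycle genes lie in red to the left.

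Of 9 regulatory T cell genes 5 were tested, 3 fell and none rose in members, with a median log2 fold change of −1.97. Il2ra, the alpha chain of the IL-2 receptor, was at 128, 136, 86.0 and 67.8 CPM in Ccl5-negative T cells and had 0 UMIs in the members of these libraries, which puts members at least 15.1-fold lower. Tnfrsf4, the co-stimulatory receptor OX40, was at 212, 10.2, 89.98 and 106 CPM in Ccl5-negative T cells and had 1 UMI in members, a ratio of 52.3 with a counting interval of 9.29 to 2072. Capg, an actin-capping protein, fell by 1.97 on the log2 scale, a call lost without the library block. Il17a, the cytokine of type 17 helper cells, was at 34.9, 61.3, 129 and 10.1 CPM in Ccl5-negative T cells and at 0 UMIs in members, at least 9.55-fold lower. Tnfrsf9 and the gut-homing integrin chain Itgb7 fell by 3.46 and 2.69. The call for Itgb7 was lost without mild replicate 1, with DESeq2 and without the library block. Il2ra was not at 0 in all members, since it stood at 33.2 CPM in sham replicate 1 and 322 CPM in moderate replicate 2, from 8 and 3 cells.

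Of 9 naive and resting T cell genes 1 fell. Lef1, a transcription factor of naive T cells, was at 67.0, 66.4, 25.1 and 29.9 CPM in members against 131, 307, 248 and 261 (log2 fold change −2.22 ± 0.36, edgeR adjusted p = 0.00652). The classes did not overlap.

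Of 10 tested cell cycle genes 2 fell and none rose in members. These were Ube2c and Tubb5, which fell by 4.76 and 0.87 on the log2 scale, and the list had a median log2 fold change of −1.07. The call for Tubb5 was lost without either severe library, after thinning and without the library block. Outside the list Cenpf and Tpx2, which act on the mitotic spindle, had 0 UMIs in members against 139 and 113 in Ccl5-negative T cells, at least 9.76-fold and 7.94-fold lower, and Cdc20 and Cdkn3 had 1 and 2 UMIs. A UMI of Mki67 or Top2a was present in 9 members in all, each with a Cd8a or Cd8b UMI. After thinning, the share with either gene was 1.13% ± 1.42 (SD, n = 4) in members, 2.88% in Ccl5-negative T cells and 10.1% in macrophage-gated cells, so it was not above this background.

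Transcripts of other cells moved with this comparison. Of 8 oligodendrocyte lineage markers 6 were tested and 3 fell in members, among them Mbp and Cldn11. Mbp, a protein of the myelin sheath, was at 262, 93.0, 18.8 and 89.8 CPM in members and 556, 174, 37.6 and 453 CPM in Ccl5-negative T cells, lower in members of all 4 libraries. The call for Mbp was lost without severe replicate 2, with doublets removed, after thinning, with a Tyrobp limit of 0 and without the library block. The list summed to 847, 996, 138 and 229 CPM in members and to 3494, 750, 275 and 1802 CPM in Ccl5-negative T cells, lower in members of 3 libraries and higher in those of moderate replicate 1. Fibroblast markers summed to 1474, 53.1, 2574 and 9.97 CPM in members against 553, 872, 2883 and 1171, higher in members of mild replicate 1 only, with none of 4 called, and 532 of the 540 Col1a1, Col3a1 and Dcn UMIs of members lay in 5 cells. B cell, dendritic cell and erythroid markers were at 1.72, 3.43 and 1.72 CPM in members. The 2 remaining genes of the largest falls, Vgf and Ppp1r14a, had 2 UMIs each in members against 222 and 186. The part of such RNA in the result was not tested. Without the 2 members that held at least 10 fibroblast UMIs, and the Ccl5-negative cells that did, 103 genes rose and 70 fell, and 112 of the 127 genes were called again.

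NK cells share the Ccl5 and granule programme, so members were next set against NK-like cells, which had no CD3 UMI, at least 3 Ccl5 UMIs, at least 1 of Ncr1 or Klrd1 and at most 1 of the macrophage receptor Csf1r. Mild replicate 1 and both severe libraries had at least 20 cells of both classes, with 23, 25 and 24 NK-like cells. In these 3 pairs 65 genes were higher in members (2.91% of 2235 tested) and 44 were lower (1.97%) by the same edgeR test. Without severe replicate 1 the counts were 11 and 12.

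Of 11 tested granule and death ligand genes 1 rose, 2 fell and 8 were not called, with a median log2 fold change of −0.31 beside −0.01 over all genes. Gzmk was at 1182, 2161 and 2084 CPM in members and at 879, 2860 and 2753 CPM in NK-like cells, Nkg7 at 2516, 1516 and 2074 against 2048, 3760 and 4297, and Gzmm at 1541, 1823 and 2553 against 1867, 3752 and 4678; none of the 3 passed the test, although Gzmm was lower in members of all 3 libraries. Gzma was lower in members, at 6.09, 50.1 and 120 CPM against 90.6, 761 and 452 (log2 fold change −2.94 ± 0.46, edgeR adjusted p = 0.00306), and Prf1 was at 207, 163 and 229 CPM against 634, 546 and 681 (−1.61 ± 0.31). Faslg was higher in members by 1.43 ± 0.36 at an edgeR adjusted p of 0.0445, a call lost without either severe library and under 5 other alternatives (DESeq2, library size scaling, a minimum of 10 cells, thinning and no library block). The calls for Gzma and Prf1 were lost without severe replicate 1 and without the library block. Levels of Gzma in Ccl5-negative T cells, members and NK-like cells thus stood at 0, 49.5 and 453 CPM over these libraries.

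Of 7 tested NK receptor genes without those of the gate 3 fell, Klrb1a (151 against 1003 CPM over the libraries), Klri1 and Klri2. Klri1 had 1 UMI in members, a ratio of 135 with a counting interval of 23.8 to 5382. Fcer1g, the signalling chain of Fc and NK receptors, was at 91.4, 12.5 and 59.8 CPM against 1232, 1607 and 2095 (log2 fold change −4.92 ± 0.50, edgeR adjusted p = 0.000229). Members were limited to 2 Tyrobp UMIs and NK-like cells were not, and of the 35 cells that this limit kept out of the members 34 held Fcer1g, at a median of 18 UMIs, so this difference is not independent of the gates. Cd8b was at 274, 157 and 279 CPM in members and had 0 UMIs in NK-like cells, at least 31.6-fold higher, and Cd5, a receptor that dampens T cell receptor signals, was at 122, 207 and 219 CPM against 0, 15.4 and 0. Of 10 tested T cell receptor signalling genes 5 rose, among them Cd2, Cd5, Cd6 and Lat, and so did Icos and Lag3, a co-stimulatory and an inhibitory receptor of T cells. The calls for Cd2, Lat, Icos and Lag3 were lost without severe replicate 1, and those for Cd2 and Lat also without severe replicate 2. Without the library block Cd2, Lat and Lag3 lost their calls, and Lat did after thinning. DESeq2 did not call Icos, Lag3 or Cd6. Library size scaling and a minimum of 10 cells also ended the call for Cd6. Sit1, an adaptor of T cell receptor signalling, had 75 UMIs in members and 1 in NK-like cells, and Ms4a4c had 84 and 0.

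Of 3 tested chemokines 2 rose and 1 fell. Ccl4 was at 8406, 4416 and 6832 CPM in members against 1205, 2099 and 2060 in NK-like cells (log2 fold change 1.89 ± 0.37, edgeR adjusted p = 0.0111), and Ccl3 was at 1590, 445 and 1356 against 526, 100 and 340 (1.91 ± 0.31). Both calls were lost without severe replicate 1 and without the library block, and that for Ccl4 also without severe replicate 2. Xcl1 was at 54.8, 56.4 and 49.9 CPM in members against 671, 584 and 628 (−3.49 ± 0.35). All 4 tested MHC class II genes rose again, RT1-Da most, by 3.51 ± 0.55, with Cd74 at 1182, 376 and 379 CPM against 362, 38.4 and 76.3. Without severe replicate 1 the calls for Cd74 and RT1-Ba were lost, and without the library block those for Cd74, RT1-Ba and RT1-Da. Other genes lower in all 3 libraries included Nrgn and Emb (0 UMIs in members against 63 and 33 in NK-like cells), Cd24 (1 against 61), the cytokine receptor chain Il2rb, the transcription factor Irf8 and Stmn1, a listed cell cycle gene (log2 fold change −2.96 ± 0.56). The glial transcripts Apod and S100b were called lower too, but not in the same direction in all 3 libraries. Without severe replicate 1 the calls for Emb, Cd24, Il2rb and Irf8 were lost, and that for Il2rb also without severe replicate 2. Without the library block those for Il2rb and Stmn1 were lost, and DESeq2 called neither Il2rb nor Irf8.

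**Figure D5:**
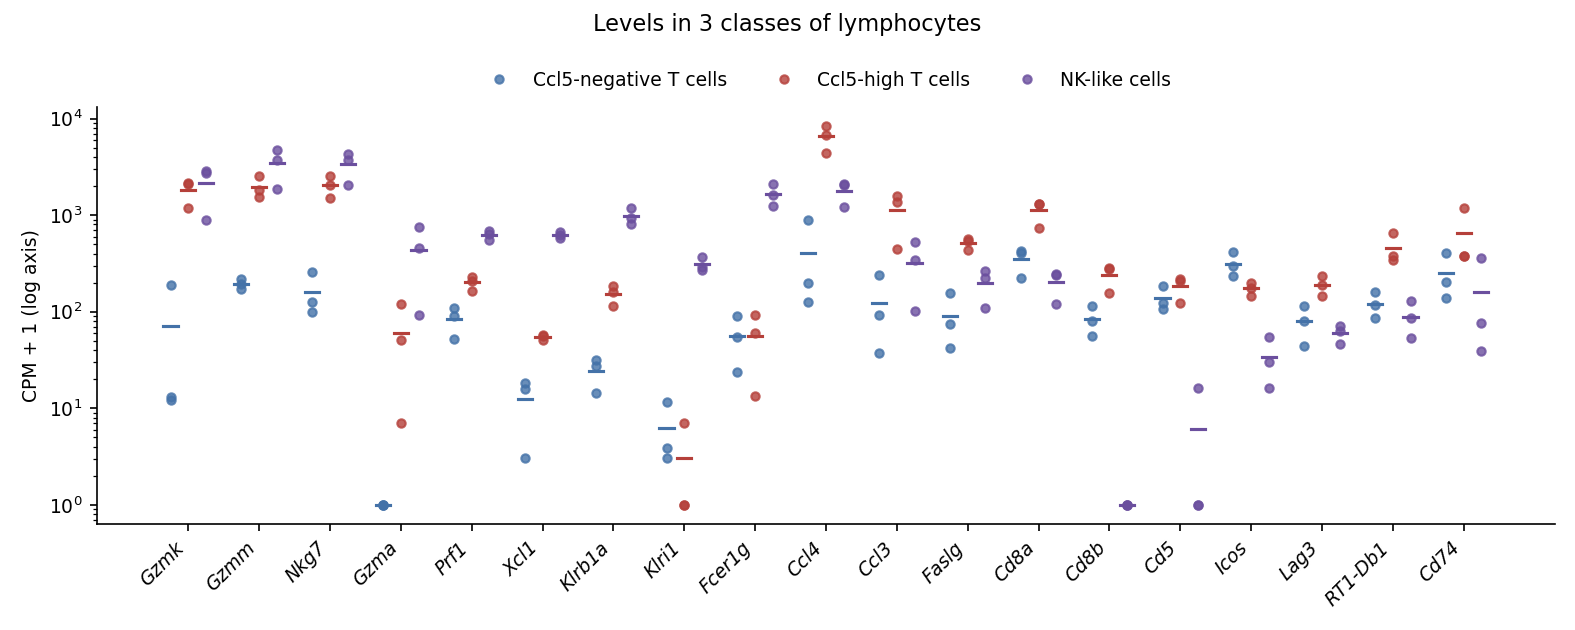
CPM plus 1 on a log axis in Ccl5-negative T cells (blue), Ccl5-high T cells (red) and NK-like cells (purple), with points for mild replicate 1 and both severe libraries and bars for their means. The red and purple points overlap for Gzmk, at 1182 to 2161 and 879 to 2860 CPM. The purple bars lie above the red ones from Gzma to Fcer1g, although the Gzma points overlap. From Ccl4 onward the red bars lie above the purple ones.

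The rise of fibroblast genes against NK-like cells rested on few cells. All 4 tested fibroblast markers were called higher, as were Igfbp5 and Aebp1, which were among the 5 largest rises. Igfbp5 was at 585, 2750 and 9.97 CPM in members of the 3 libraries, while the Col1a1, Col3a1 and Dcn UMIs reached 215 in 1 cell of mild replicate 1 and 314 in 1 cell of severe replicate 1, and 166 of the 179 members had none. Without cells of at least 10 such UMIs 83 genes rose and 78 fell. Dcn, Lum, Col1a1, Col3a1, Igfbp5 and Aebp1 then had too few counts to be tested. Oligodendrocyte transcripts differed between libraries here too, with Mbp at 2773 CPM in the NK-like cells of mild replicate 1 and at 23.1 and 52.8 CPM in those of the severe libraries.

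Members of the severe libraries were compared with those of the mild library to ask whether their expression followed the injury. The mild group had 1 library with 20 members, and moderate replicate 1 entered the fit as a group of its own, so that the spread between replicates came from the 2 severe libraries alone and the single mild library was assumed to vary like them. The count was 48 genes higher in severe (1.97% of 2441) and 27 lower (1.11%), but no gene was called when the moderate library was left out (167 at an unadjusted p under 0.05) or when the 2 cells rich in fibroblast UMIs were (188), and DESeq2 called 6. Rps19, a ribosomal protein among the genes called, also moved across the libraries in other cells. It was at 85.3, 159, 2743 and 1835 CPM in the members of mild replicate 1, moderate replicate 1 and both severe libraries, at 75.7, 208, 3269 and 2928 CPM in Ccl5-negative T cells, and at 40.6, 77.5, 1431 and 1142 CPM in macrophage-gated cells. Injury grade and library cannot be told apart for this gene.

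On simulated counts this test recovered 2% of 4-fold and 0% of 2-fold changes in genes of at least 100 CPM. A gene that missed the threshold is therefore given by its values only. Gzmk was higher in severe by 1.02 ± 0.57 on the log2 scale (edgeR adjusted p = 0.524), with thinned shares of members holding a UMI of 54.7% in mild replicate 1, 44.1% in moderate replicate 1, 77.8% in severe replicate 1 and 82.6% in severe replicate 2. Both severe libraries were above the other libraries, but these shares were not tested, and only 0.0477% of macrophage-gated cells held a Gzmk UMI. Ccl4, Nkg7 and Faslg differed by −0.40 ± 0.45, −0.31 ± 0.53 and −0.03 ± 0.63. Of the MHC class II genes RT1-Bb was at 201 CPM in mild replicate 1, 13.3 in moderate replicate 1 and 18.8 and 19.95 in the severe libraries (log2 fold change −3.15 ± 0.87, edgeR adjusted p = 0.0216). It had 43 UMIs in all members, its call was lost without the moderate library and without the cells rich in fibroblast UMIs, and injury grade and library cannot be told apart for it. Cd74 differed by −1.47 ± 0.61 (edgeR adjusted p = 0.245). The other genes with the largest differences were RGD1565131, AABR07032255.2, S100b, Apod and R3hdml among those lower in severe, and LOC103694857, Hba-a2, RF00015 and LOC108349682 among those higher; S100b and Apod are glial transcripts and Hba-a2 is a haemoglobin chain. R3hdml was at 231 CPM in the members of mild replicate 1 and at 0, 18.8 and 0 CPM in the other libraries of the fit.

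The 8 members of sham replicate 1 entered no test. Their Ccl5 stood at a median of 101 UMIs per cell, above the medians of 23.5 to 66.0 in the 4 libraries of the first fit. These are raw UMIs, and Ccl5 was not compared at equal depth. The sham members held a median of 5574 UMIs in total, against 1819 to 4165 in those libraries. Their pooled Gzmk and Nkg7 stood at 1395 and 1578 CPM, within the range of those 4 libraries. Gzmm was at 1013 CPM, below all 4 of them. Ccl4 was at 1030 CPM and Ccl3 at 150 CPM, and these last 2 genes were below every injured library. Of the 60220 UMIs of these members, 20103 came from 1 cell, with 49 Nkg7 and 47 Ccl4 UMIs against medians of 7.5 and 2.0. The pooled levels of Nkg7 and Ccl4 thus lean on 1 of the 8 members. Their 8 neutrophil markers summed to 2806 CPM, S100a9 foremost, against 0 to 67.0 CPM in the injured libraries, and the part of such RNA in these levels was not tested. Of the T cell cytokines, Tgfb1 had a UMI in 89 of the 179 members, Ifng in 8 and Tnf in none, without thinning. Tgfb1 was at 268 CPM in all members pooled and at 332 CPM in macrophage-gated cells. The part of background RNA in its count was not tested.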

How the data were processed

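The authors deposited raw UMI counts per gene and cell for 8 droplet libraries (10x 3' v3), made with Cell Ranger and aligned to Rnor_6.0 per the submitters' notes; the matrix headers name Cell Ranger 5.0.1 and the supplementary methods 6.0.1. Libraries were grouped by their deposited labels and held between 31482153 and 131045446 UMIs in 3069 to 12674 cells. The members and gene lists were chosen with earlier results of these data known. Cells with at least 500 UMIs and at most 10% mitochondrial UMIs were kept, 63769 of 68658. Doublets were left in and removed as an alternative, as the top 7.7% of Scrublet scores within a library (scanpy 1.11.5); 3 of 179 members were among them. Of 28 library pairs, each shared 5 to 37 cell barcodes, and no barcode was a member's in 2 libraries, although 1 member barcode of sham replicate 1 also occurred among the cells of mild replicate 2 and 1 of severe replicate 1 among those of mild replicate 1.

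Counts were summed per library and cell class and tested with edgeR 4.0.16 (R 4.3.3; TMM, filterByExpr, glmQLFit and glmQLFTest), both classes of a library paired by the library as block, since they came from the same cord. An adjusted p under 0.05 was called. DESeq2 1.42.0 was an alternative, with others on normalization, filters, depth and gates. On simulated counts, changes of each size were set in 100 tested genes with a pooled level of at least 100 CPM. The test of members against Ccl5-negative T cells recovered 71% of 2-fold and 100% of 4-fold changes (3273 genes tested). That against NK-like cells recovered 34% and 97% (2212 tested), and that of severe against mild 0% and 2% (2411 tested). Changes in genes of lower level were not simulated. Genes of the gates were left out of all counts of calls. Genes of the lists could be named; beyond them the 10 largest rises and falls (5 for the other comparisons) were named, with at least 50 CPM in the higher class and the same direction in every library pair, or no overlap between groups. Of 277 list genes 268 were in the files. Shares of members with a UMI were taken after thinning cells to 1000 UMIs, leaving out 2 shallower members. Correlations used exact permutation tests in Python 3.11.15. Some results are not reported here.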

Additional observations from a re-analysis of the deposited data

Results flagged for a closer look

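Outside the gate, 35 cells met the CD3 and Ccl5 limits but held more than 2 Tyrobp UMIs, a signal in cells that the comparisons did not use. They had a median of 28 Tyrobp UMIs and 9074 UMIs in total, Cd8a in 33, Gzmk in 26, Fcer1g in 34, C1qb in 20 and Ncr1 in 1, and 18 of them came from mild replicate 1.

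In sham replicate 1, whose members entered no test, 3 of 8 members (37.5%, Wilson 95% interval 13.7 to 69.4%) held a UMI of Mki67 or Top2a, against 2 of 66, 2 of 34, 2 of 36 and 0 of 23 in the 4 injured libraries with at least 20 members. Members of that library were deeper, at a median of 5574 UMIs against 1819 to 4165 in those 4 libraries, and 1 cell of 20103 UMIs held 28 Mki67 and 50 Top2a UMIs while the other 2 held 2 and 1 Mki67 UMIs and no Top2a. In 1 random draw of thinning to 1000 UMIs the count was again 3 of 8, and at 2000 UMIs 2 of 8. With 2 and 1 Mki67 UMIs in 2 of these cells, the count varies between draws, and the part of depth was not tested. At 1000 UMIs 53 of 504 macrophage-gated cells and 1 of 292 Ccl5-negative T cells of the same library held either gene. The difference was not tested.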

How the results depend on the processing

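Against Ccl5-negative T cells, where 71 genes were higher and 56 lower, DESeq2 gave 32 lower, no filter on low counts 181 lower, thinning to 1000 UMIs 35 lower and a Tyrobp limit of 0, which left 3 libraries and 2111 genes tested, 113 lower, and without the library in the fit (no replicate block) 10 were higher and 4 lower. Leaving out each library gave 31 to 96 higher and 32 to 80 lower; the counts were 31 and 42 without severe replicate 1 and 39 and 32 without severe replicate 2. For the 51 genes called in the main fit that were on a list or named above, every alternative that tested them kept the direction. This covers 649 values, of which 91 missed the threshold. Since the genes were picked by their call on the same cells, a reversal was unlikely from the start.

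Against NK-like cells, where 65 were higher and 44 lower, DESeq2 gave 24 and 16, no filter 142 and 182, thinning 11 and 27, no replicate block 13 and 18, and the exclusion of cells rich in fibroblast UMIs, chosen after seeing the data, 78 lower. Leaving out each library gave 11 to 89 higher and 12 to 78 lower, the lowest without severe replicate 1 and the highest without mild replicate 1. All directions of 38 genes picked in the same way, by their call, were kept, in 358 values, of which 54 missed the threshold.

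For severe against mild, with 48 and 27, DESeq2 gave 5 and 1, library size scaling 27 higher, no filter 25 higher, thinning 18 and 6 and doublet removal 4 and 1. The 2 groups alone, which is the fit without moderate replicate 1, gave 0 and 0 (edgeR, 167 genes at an unadjusted p under 0.05), as did the exclusion of cells rich in fibroblast UMIs (188). No paired analysis was made for this comparison, since the labels do not match animals of different groups with each other. Leaving out mild replicate 1 ended the contrast, and leaving out either severe library left no residual degrees of freedom, so neither was fitted. In the paired comparisons a minimum of 50 cells could not be fitted, and the cause of these shifts was not tested.

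The member share of kept cells kept its positive r against drop height, from 0.192 to 0.742 when each library was left out, the highest without mild replicate 1. The member share of T cells turned from r = 0.103 to −0.189 with 1 Ccl5 UMI as the limit and −0.503 without the 2 libraries farthest from the median height, and ranged from −0.314 to 0.510 when each library was left out, with −0.0221 without severe replicate 1. The share of members with Cd8a or Cd8b was 87.3% without thinning and 87.5% at 2000 UMIs. The second value leaves out members under 2000 UMIs and moderate replicate 1, which then had fewer than 20, so the 2 values cover unlike cells. The shares with Ifng and with Mki67 or Top2a were 4.37% and 3.62% without thinning. Counts of 0 to 66 members per library limit every estimate here.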
